A study of Mus musculus with 12 samples.

Results

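High-mobility-group (HMG) proteins are abundant, small, non-histone proteins of chromatin, and 9 of their genes were followed in mouse lung endothelial cells (MLECs) of control (CTR) mice and of mice carrying an inducible endothelial deletion of the transcription factors Sp1 and Sp3 (dKO). The 9 genes, of 28689 in the expression table, were Hmgn1, Hmgn2, Hmgn3, Hmgn5, Hmga1, Hmga2, Hmgb1, Hmgb2 and Hmgb3, and each was found as the row of the parent gene by its Ensembl identifier. They lie on 8 chromosomes, Hmgn1 on 16, Hmgn2 on 4, Hmgn3 on 9, Hmga1 on 17, Hmga2 on 10, Hmgb1 on 5, Hmgb2 on 8, and Hmgn5 and Hmgb3 on X. They were chosen by family name and with an earlier result of the same CTR and dKO comparison in view, in which Hmgn2 stood out for its low level in dKO. Their CTR and dKO values are therefore given as a description, with no p-value of their own.

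The dKO group was 6 libraries from mice with the alleles VE-CAD-CreERT2+/Sp1 fl/fl/Sp3 fl/fl, and the CTR group was 6 libraries from littermates with the same floxed Sp1 and Sp3 alleles but no Cre (labelled WT). Both groups received tamoxifen, the drug that activates CreERT2, on consecutive days. The vascular endothelial cadherin promoter limits CreERT2 to endothelial cells, so other cells in a culture keep both genes. MLECs were taken from the lungs of adult mice with beads against CD31 and then against ICAM-2 and used at low passage, and the sources do not say how many mice stood behind a library. Differences therefore stand against the spread between these libraries, which may be partly technical.

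Depth was even, from 15523054 to 17938286 fragments per library. Sp1 had a level of 21.2 ± 1.77 FPKM (SD, n = 6) in CTR and 10.6 ± 1.53 FPKM in dKO with no overlap. FPKM counts fragments scaled to transcript length and library depth. Sp3 had 27.7 ± 2.31 FPKM in CTR and 24.997 ± 1.64 FPKM in dKO with overlapping libraries. In these RNA levels, the labels are therefore borne out by Sp1 alone. For protein, the paper reports less Sp1 and less Sp3 by immunofluorescence in the aortic endothelium of dKO mice, not in these libraries. All 10 endothelial markers were detected and all 10 were higher in dKO, with summed levels of 188 to 309 FPKM in CTR and 358 to 483 FPKM in dKO. Markers of other cells also differed, where over all genes tested 20.4% were higher and 32.6% lower in dKO. All 10 macrophage markers were higher in dKO, with a summed level of 711 to 1244 FPKM in CTR and 2378 to 5281 FPKM in dKO, while 4 of 9 tested fibroblast markers were lower, 1 was higher, and the summed level was 2194 to 2791 FPKM in CTR and 883 to 1748 FPKM in dKO. Of the other marker lists, 5 of 6 mesothelial markers, 3 of 10 lung epithelial markers, 3 of 6 tested lymphatic endothelial markers and the 1 tested lymphocyte or granulocyte marker were higher, 1 lymphatic marker (Mmrn1, listed at 0 in all dKO libraries) was lower, and no retina marker passed the filter. The part of these other cells in the results below was not tested, and in such bulk samples fewer cells of a type and less RNA per cell cannot be told apart.

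HMG proteins fall into 3 families that share no fold. HMGN proteins bind the nucleosome itself and compete with linker histone H1 for chromatin; HMGA proteins bind the minor groove of AT-rich DNA through AT-hooks and are high in embryonic and growing cells; HMGB proteins bend DNA with HMG boxes, and HMGB1 also acts as an alarm signal when it leaves a cell. Sp1 and Sp3 bind GC boxes, G-rich elements found in many promoters, and the promoters of the members are shown first for that reason. The 250 bases before the annotated start were read from GRCm39, the build of the deposited table, on the strand of each gene, with the GC box GGGCGG (or its reverse complement CCGCCC) in capitals. Hmgn2 is shown for its low level in dKO, Hmgn1 as its most abundant relative and Hmgb2 as a lower member without a match.

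Hmgn2, chr4:133695552-133695801, minus strand: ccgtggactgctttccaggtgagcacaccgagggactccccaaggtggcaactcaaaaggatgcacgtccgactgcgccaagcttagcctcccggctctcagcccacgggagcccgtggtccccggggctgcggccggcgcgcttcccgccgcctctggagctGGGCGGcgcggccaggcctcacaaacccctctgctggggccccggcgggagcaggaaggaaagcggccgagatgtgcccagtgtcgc
Hmgn1, chr16:95929232-95929481, minus strand: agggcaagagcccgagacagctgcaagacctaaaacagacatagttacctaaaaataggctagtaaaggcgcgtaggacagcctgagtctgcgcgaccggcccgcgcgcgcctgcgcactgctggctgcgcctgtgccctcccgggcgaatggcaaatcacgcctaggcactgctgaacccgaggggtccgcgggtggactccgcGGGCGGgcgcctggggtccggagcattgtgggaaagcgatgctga
Hmgb2, chr8:57964437-57964686, plus strand: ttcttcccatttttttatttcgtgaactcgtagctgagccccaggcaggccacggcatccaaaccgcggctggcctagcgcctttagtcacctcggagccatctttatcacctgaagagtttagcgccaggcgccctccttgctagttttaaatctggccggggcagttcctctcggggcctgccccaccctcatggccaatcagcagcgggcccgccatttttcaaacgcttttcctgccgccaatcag

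Over the window from 250 bases before to 50 after the start, a GC box was found in 4 of 9 members, with 1 match each in Hmgn1, Hmgn2 and Hmgb3 and 3 in Hmga1. The match of Hmgn2 began at −87 and that of Hmgn1 at −45 from the start. Only the start of the canonical transcript of each gene was used. For Hmgn2 it lies at 133695551, in a gene that extends to 133695961, so other starts would give other windows. Hmgn3, Hmgn5, Hmga2, Hmgb1 and Hmgb2 held none in this window. Of the 12361 promoters of tested genes with a window, 56.3% held at least 1 match. The shorter motif GGCGG, which is contained in GGGCGG, was found on either strand in 7 of 9 members and in 74.8% of the promoters. Members with a match and members without one were found both among those with lower levels in dKO (Hmgn2 and Hmgb3 against Hmgb1, Hmgb2 and Hmgn5) and among the rest (Hmgn1 and Hmga1 against Hmgn3 and Hmga2). A match is a description of letters and not of a bound site.

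Of the 9 members, 5 were called lower in dKO, none was called higher and 4 were not called. Called means an adjusted p under 0.05 in limma, fitted to log2(FPKM + 1) over the 12467 genes that reached 1 FPKM in 6 or more libraries, and all 9 members passed this filter. Over all genes tested, 53.1% were called, 32.6% lower and 20.4% higher, so that calls were frequent everywhere. Higher genes made up 38.5% of all calls, and 51.6% after median-of-ratios scaling, so the split between the directions depends on the scaling. In 4 members, Hmgn2, Hmgn5, Hmgb1 and Hmgb2, no dKO library reached the lowest CTR library, against 16.1% of all genes tested. The median log2 difference (dKO minus CTR) of the members was −0.26 and that of all genes tested was −0.10. These counts describe genes picked with this contrast known, and nothing about the families was read from them.

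**Figure D1:**
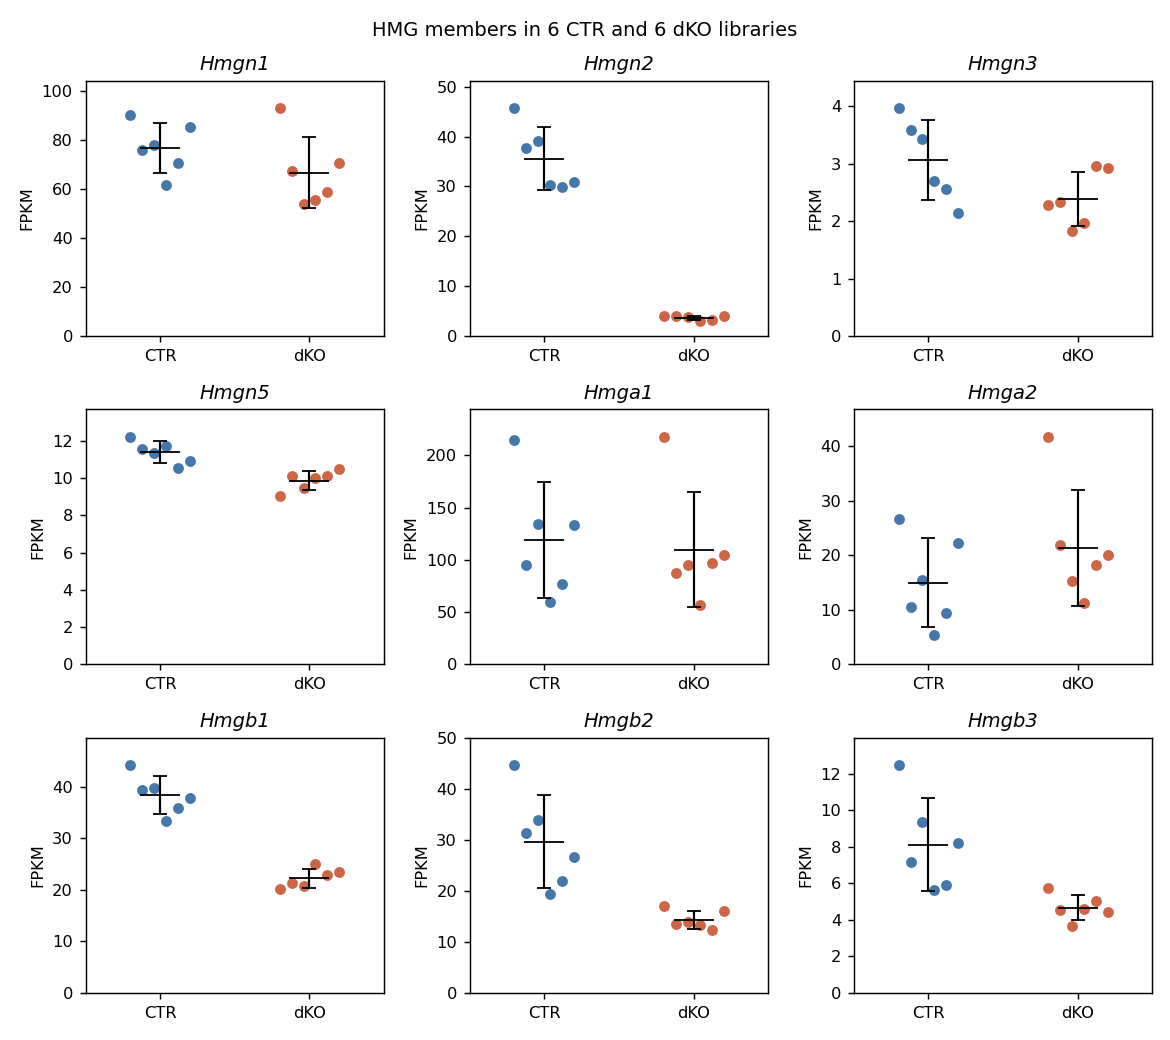
FPKM of the 9 HMG members (vertical axis of each panel, from 0) in the 6 CTR and 6 dKO libraries; points are libraries in replicate order, the dash is the mean and the bar 1 SD. Hmgn2 lies between 3.04 and 4.06 FPKM in dKO, far below its CTR libraries, and Hmga1 and Hmga2 spread widely within both groups.

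Among the nucleosome-binding HMGN genes, Hmgn2 had by far the largest difference. It lies on chromosome 4 (GRCm39, 133680805 to 133695961, minus strand). Its level was 30.0 FPKM in the lowest, 34.3 at the median and 45.6 in the highest CTR library, and 3.04, 3.85 and 4.06 FPKM in the lowest, median and highest dKO library. The groups were far apart, with a mean of 35.6 ± 6.34 FPKM in CTR and 3.65 ± 0.441 FPKM in dKO (SD, n = 6 each), that is 10.2% of the CTR mean. The log2 difference was −2.97 (standard error 0.11), and on this scale 1 of the 12467 genes tested, Mmrn1, had a lower value. The rank depends on the scale, since Lrrc17 stood at 6.57% and P2rx3 at 8.45% of their CTR means, below the 10.2% of Hmgn2. As the level is low in dKO, the log2(FPKM + 1) scale understates the difference, which was −3.28 with limma-voom on recovered fragments.

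Hmgn1, which like Hmgn2 binds nucleosomes and loosens chromatin, was the most abundant HMGN gene in every library. Its level was 61.6 FPKM in the lowest, 76.97 at the median and 90.2 in the highest CTR library. In dKO these values were 53.8, 63.2 and 93.0 FPKM. The groups overlapped, and the highest of all 12 libraries was a dKO library. The log2 difference was −0.22 (standard error 0.13) and was not called, although it was −0.32 and called lower without dKO replicate 1.

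Hmgn5, an X-linked HMGN gene with a long acidic tail, differed little but evenly. Its level ran from 10.6 to 12.2 FPKM in CTR, with a median of 11.5, and from 9.06 to 10.5 FPKM in dKO, with a median of 10.1. Each dKO library was below each CTR library, if narrowly. The mean was 11.4 ± 0.586 FPKM in CTR and 9.88 ± 0.516 FPKM in dKO (SD, n = 6 each), and the log2 difference was −0.19 (standard error 0.05). It was no longer called with median-of-ratios scaling (−0.10) or quantile normalization (−0.13).

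Hmgn3 had the lowest levels of all members, from 2.14 to 3.96 FPKM in CTR and from 1.83 to 2.96 FPKM in dKO. The libraries of the groups overlapped. Its log2 difference was −0.26 (standard error 0.13) and was not called, and it was −0.33 and called lower without CTR replicate 6.

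Because FPKM is per length, the 4 HMGN genes could be added. Their summed level was 127 ± 15.9 FPKM in CTR and 82.5 ± 14.7 FPKM in dKO (SD, n = 6 each). Hmgn2 held 27.9% ± 2.38 (SD, n = 6) of this sum in CTR and 4.48% ± 0.594 (SD, n = 6) in dKO, with 23.9% in its lowest CTR library and 5.51% in its highest dKO library. The share of Hmgn1 was 60.6% ± 2.99 in CTR and 80.3% ± 2.86 in dKO, without overlap, although its own level was not called different. The share of Hmgn5 was 9.08% ± 1.05 in CTR and 12.3% ± 2.12 in dKO, and that of Hmgn3 was 2.40% ± 0.404 in CTR and 2.93% ± 0.632 in dKO. With the FPKM of near-identical copies added to each gene, Hmgn2 held 42.2% in CTR and 34.3% in dKO, a much smaller gap. Most copies of Hmgn2 are short, the longest of these at 279 bases, and few fragments give them a high FPKM. Hmgn2-ps, with 1151 bases, is not short. Sums over copies below therefore use fragments rather than FPKM.

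**Figure D2:**
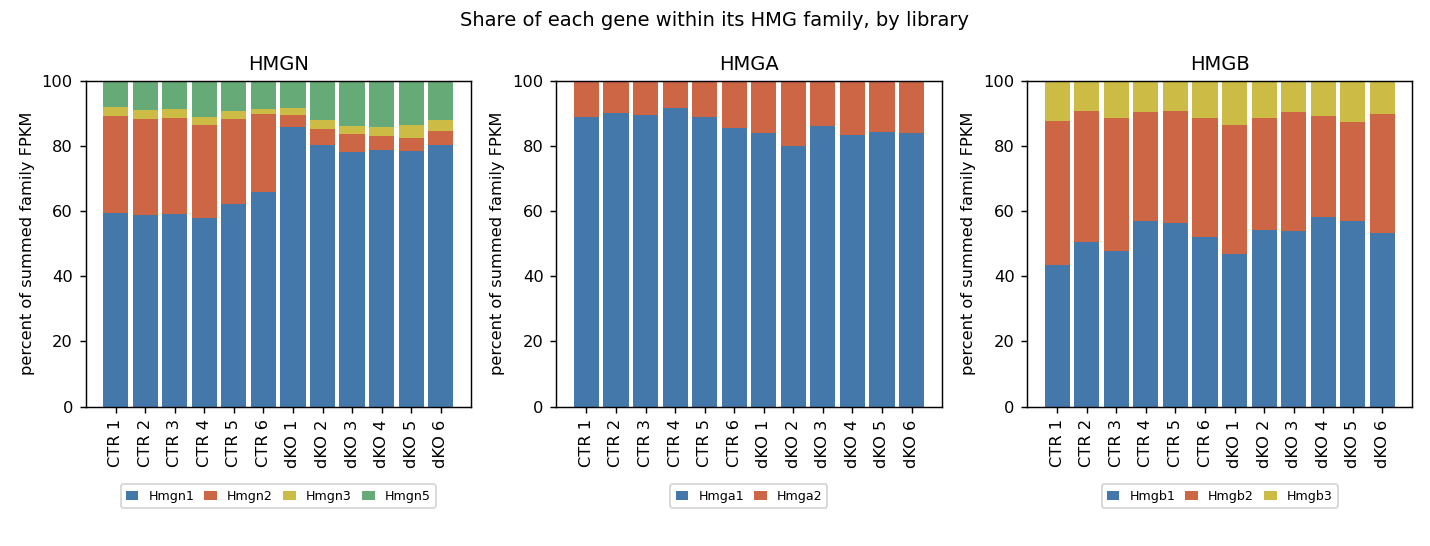
Share of each gene in the summed FPKM of its family (vertical axis, percent; stacked bars add to 100) in each of the 12 libraries, for HMGN, HMGA and HMGB. The part of Hmgn2 shrinks in all 6 dKO libraries, whereas the HMGB genes keep similar shares in both groups.

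HMG genes have many processed copies in the genome, which can take reads from the parent or give reads to it. A copy was counted where its transcript matched that of the member with an identity of 95% or higher, in a stretch of 150 bases or longer that covered 50% or more of the copy. By this measure Hmgb1 had 31 copies in the table, Hmgn2 7, Hmgb2 4, Hmgn1 3, and Hmgn5, Hmga1 and Hmgb3 1 each, while Hmgn3 and Hmga2 had none. The coding sequence of Hmgn2 is shown with that of its copy Gm7931, where capitals mark the bases that differ from the parent. Those of Hmgn2-ps and Gm10182 did not differ from Hmgn2 at any of the 270 coding bases, and are not printed again. All are 5′ to 3′, and the exons of Hmgn2 are joined. The Hmgn2 transcript shown here is not the canonical one whose start was used for the promoter.

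Hmgn2, chr4:133692852-133695120, minus strand, 6 exons: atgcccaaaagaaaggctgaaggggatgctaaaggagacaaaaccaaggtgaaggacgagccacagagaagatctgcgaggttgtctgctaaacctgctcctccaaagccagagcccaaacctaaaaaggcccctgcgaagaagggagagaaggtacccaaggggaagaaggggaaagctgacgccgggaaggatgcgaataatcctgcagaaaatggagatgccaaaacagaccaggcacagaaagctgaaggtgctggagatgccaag
Gm7931, chr5:46571686-46571955, plus strand: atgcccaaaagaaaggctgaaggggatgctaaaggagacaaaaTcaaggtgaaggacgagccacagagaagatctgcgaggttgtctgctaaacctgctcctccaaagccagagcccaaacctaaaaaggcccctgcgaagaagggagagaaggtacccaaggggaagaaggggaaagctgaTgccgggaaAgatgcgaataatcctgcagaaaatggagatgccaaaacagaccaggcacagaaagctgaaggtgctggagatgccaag

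Fragments recovered from the FPKM steps were 11156 for Hmgn2 over the 6 CTR libraries and 1143 over the 6 dKO libraries. Its 7 copies together held 2510 fragments in CTR and 2298 in dKO. Scaled to library depth as FPM, which is FPKM before the division by length, Hmgn2 had 109 ± 19.4 in CTR and 11.2 ± 1.35 in dKO (SD, n = 6 each), and the copies had 24.5 ± 3.42 in CTR and 22.5 ± 3.97 in dKO. The copies thus stood at 91.8% of their CTR level and the parent at 10.2%. Copies held 18.4% of the fragments of parent and copies together in CTR and 66.8% in dKO. Parent and copies together were at 133 ± 22.6 FPM in CTR and 33.6 ± 5.04 in dKO, or 25.2% of CTR, and these sums did not overlap (112 in the lowest CTR library, 41.0 in the highest dKO library). Whether fragments of the parent were assigned to copies was not tested.

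The copies of Hmgn2 did not move alike. Hmgn2-ps, on chromosome 8 and annotated as protein-coding, held most of the copy fragments, with 1915 in CTR and 1512 in dKO, and was lower (log2 difference −0.32, standard error 0.11, adjusted p = 0.0239 in limma). Hmgn2-ps1, on chromosome 5, was higher, at 10.5 ± 1.78 FPKM in CTR and 16.6 ± 4.47 FPKM in dKO (SD, n = 6 each) (0.60, standard error 0.15). Gm10182, on chromosome 9, was also higher, at 1.00 ± 0.526 FPKM in CTR and 3.44 ± 1.28 FPKM in dKO, but rested on 28 and 96 fragments. Gm6750, on chromosome 12, was lower, with 44 fragments in CTR and 5 in dKO. Gm7931 (152 and 109 fragments) and Gm10357 (72 and 103 fragments) were not called.

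**Figure D3:**
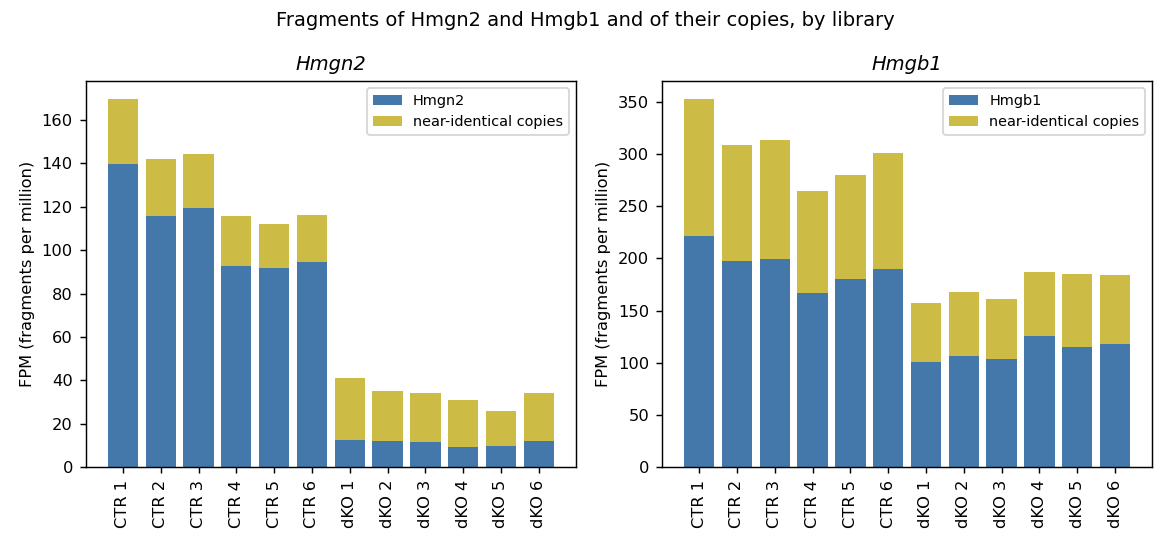
FPM, fragments scaled to library depth (vertical axis, from 0) of Hmgn2 and Hmgb1 (blue) and of their near-identical copies (yellow, stacked on top) in each of the 12 libraries. For Hmgn2 the blue part is small in dKO and the yellow part is of similar height in both groups, whereas for Hmgb1 both parts are smaller in dKO.

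The HMGA genes, which encode AT-hook proteins of growing cells, were marked by their spread between libraries of one group. Hmga1 was the most abundant member on average, with 59.4 FPKM in the lowest, 114 at the median and 215 in the highest CTR library. In dKO these were 56.7, 96.3 and 218 FPKM. The 2 ranges almost coincided, and the highest library exceeded the lowest 3.62-fold in CTR and 3.84-fold in dKO. The log2 difference was −0.11 (standard error 0.33), was not called, and ran from −0.33 without dKO replicate 1 to 0.08 without CTR replicate 1, so that its sign depends on single libraries. Hmga1 had 1 near-identical copy, Hmga1b on chromosome 11, annotated as protein-coding, which had 24.1 ± 12.5 FPKM in CTR and 21.2 ± 10.3 FPKM in dKO (SD, n = 6 each).

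Hmga2 was the only member with a positive log2 difference. Its level was 5.39 FPKM in the lowest, 12.97 at the median and 26.5 in the highest CTR library, and 11.2, 19.1 and 41.7 FPKM in the lowest, median and highest dKO library. The groups overlapped over most of their range. The log2 difference of 0.55 (standard error 0.36) was not called. Within the HMGA sum, which was 134 ± 63.5 FPKM in CTR and 131 ± 65.7 FPKM in dKO, Hmga2 held 10.8% ± 1.98 (SD, n = 6) in CTR and 16.4% ± 1.99 (SD, n = 6) in dKO. Its share ran from 8.32% to 14.3% in CTR and from 13.8% to 19.95% in dKO, an overlap much narrower than that of its level.

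All 3 HMGB genes, which encode DNA-bending proteins with paired HMG boxes, were called lower, against 32.6% of all genes tested. As above, nothing about the family was read from this count. Hmgb1 lies on chromosome 5 (GRCm39, 148983445 to 149121815, minus strand). Its level was 33.3 FPKM in the lowest, 38.5 at the median and 44.1 in the highest CTR library, and 20.1, 22.1 and 24.9 FPKM in dKO. The groups did not overlap, and the spread was small in both. The mean was 38.3 ± 3.69 FPKM in CTR and 22.2 ± 1.86 FPKM in dKO (SD, n = 6 each), with a log2 difference of −0.76 (standard error 0.08).

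Hmgb2, the HMGB gene most tied to dividing cells, had a level of 19.5 FPKM in the lowest, 29.0 at the median and 44.7 in the highest CTR library. In dKO it had 12.3, 13.7 and 17.0 FPKM. The groups did not overlap, but the lowest CTR library was close to the highest dKO library. The log2 difference was −0.96 (standard error 0.17). Hmgb3, X-linked and high in the embryo, had 5.61 FPKM in the lowest, 7.68 at the median and 12.5 in the highest CTR library, and 3.64, 4.57 and 5.77 FPKM in dKO. Here 5 of 6 dKO libraries lay below all CTR libraries. The log2 difference was −0.65 (standard error 0.16).

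The HMGB sum was 76.1 ± 15.3 FPKM in CTR and 41.2 ± 2.33 FPKM in dKO (SD, n = 6 each). Unlike in the HMGN sum, the shares of its genes stayed close. Hmgb1 held 51.2% ± 5.10 in CTR and 53.9% ± 3.93 in dKO, Hmgb2 held 38.3% ± 4.15 in CTR and 34.8% ± 3.49 in dKO, and Hmgb3 held 10.5% ± 1.30 in CTR and 11.3% ± 1.47 in dKO, with overlapping libraries in each case.

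The copies of Hmgb1 moved with their parent, which sets them apart in description from those of Hmgn2. The first 150 coding bases are shown for Hmgb1 and for 2 abundant copies, with bases that differ from the parent in capitals. Positions are counted from 1 at the A of the start codon, with the base of Hmgb1 first. Both copies have A21G, and so did each of the 6 that aligned over this stretch without a gap, of the 7 copies with a mean of at least 1 FPKM that were examined, and Hmgb1-ps2 also has G146A.

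Hmgb1, chr5:148987398-148987547, minus strand: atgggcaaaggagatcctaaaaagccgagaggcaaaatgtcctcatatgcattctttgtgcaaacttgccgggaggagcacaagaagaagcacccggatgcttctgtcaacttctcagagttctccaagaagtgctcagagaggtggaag
Gm15387, chr15:73966033-73966182, minus strand: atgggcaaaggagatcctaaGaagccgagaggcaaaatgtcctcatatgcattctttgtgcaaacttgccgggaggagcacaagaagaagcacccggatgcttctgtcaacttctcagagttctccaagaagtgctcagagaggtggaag
Hmgb1-ps2, chrX:144958938-144959087, plus strand: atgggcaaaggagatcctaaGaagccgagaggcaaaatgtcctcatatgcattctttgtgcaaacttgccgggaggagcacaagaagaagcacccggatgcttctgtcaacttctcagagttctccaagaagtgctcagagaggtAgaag

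Hmgb1 had 193 ± 18.6 FPM (SD, n = 6) in CTR and 112 ± 9.34 in dKO, or 58.0% of CTR. Its 31 copies together had 111 ± 11.9 in CTR and 62.0 ± 5.15 in dKO, or 56.0% of CTR. Copies held 36.5% of the fragments of parent and copies in CTR and 35.7% in dKO. The 7 copies with a mean of at least 1 FPKM in a group were all called lower, led in abundance by Gm15387 with 62.7 ± 9.60 FPKM in CTR and 35.5 ± 3.21 FPKM in dKO (log2 difference −0.80, standard error 0.10). For Hmgb2, the parent was at 48.3% and its copies at 47.8% of CTR, and for Hmgb3 at 57.6% and 59.9%. Copies with such closely parallel values cannot be told apart from fragments of the parent in this table.

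The members also varied together within a group. In CTR replicate 1 all 9 members had their highest CTR value, whereas 21.2% of all genes tested were highest there. In CTR replicate 4, 6 of 9 members had their lowest CTR value, against 31.1% of all genes tested. In dKO replicate 1, 6 of 9 members (Hmgn1, Hmgn2, Hmga1, Hmga2, Hmgb2 and Hmgb3) were highest, against 32.8% of all genes tested, and Hmgn5 and Hmgb1 were lowest. In dKO replicates 3 and 4, 3 of 9 members each were lowest, against 14.2% and 22.9% of all genes tested. Hmgb1 had its highest dKO value in replicate 4. Other gene lists were also at their ends in these libraries. The summed level of 15 proliferation genes was highest of its group in CTR replicate 1 (387 FPKM) and dKO replicate 1 (186 FPKM) and lowest in replicate 4 of each group (122 FPKM in both). CTR replicate 1 had the lowest endothelial (188 FPKM) and fibroblast (2194 FPKM) sums of CTR, CTR replicate 4 the highest endothelial (309 FPKM) and macrophage (1244 FPKM) sums of CTR, and dKO replicate 1 the lowest fibroblast sum of dKO (883 FPKM). Their part in the HMG levels was not tested.

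The proliferation list holds genes of the cell cycle and of DNA synthesis. Of its 15 genes, 10 were lower in dKO, against 32.6% of all genes tested, none was higher and 5 were not called, with a median log2 difference of −0.61 against −0.10 for all genes tested. Ccna2, cyclin A2, had the largest fall on the log2(FPKM + 1) scale, from 22.01 ± 8.02 FPKM to 8.45 ± 1.56 FPKM (mean ± SD over 6 libraries). This rank depends on the scale, since Ccna2 stood at 38.4% of its CTR mean and Cenpf, a less abundant gene, at 32.5%. Pcna, the sliding clamp of DNA synthesis and the most abundant gene of the list, had 41.8 ± 13.3 FPKM in CTR and 42.7 ± 5.21 FPKM in dKO and was not called. Rrm2, a subunit of ribonucleotide reductase, had a log2 difference of 0.41 (standard error 0.35) and was not called. The count of lower genes was 5 without CTR replicate 3 or with no filter on low values, and 6 without dKO replicate 4.

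HMG-box proteins outside the HMGB family were lower more often than higher. Of 21 genes listed, 16 were tested, 9 were lower, none was higher and 7 were not called. Of all genes tested, 32.6% were lower and 20.4% higher. The median log2 difference of the list was −0.23. After median-of-ratios scaling 7 were lower and 1 was higher, and after quantile normalization 8 and 1. Ssrp1, a subunit of the histone chaperone FACT and the most abundant, fell from 65.9 ± 13.3 FPKM to 42.6 ± 8.89 FPKM (mean ± SD over 6 libraries), with a log2 difference of −0.61 (standard error 0.15, adjusted p = 0.00423 in limma). Smarce1, a subunit of the BAF remodelling complex, fell by 0.48 on the log2 scale (standard error 0.05), and Tfam, the HMG-box protein that packs mitochondrial DNA, fell by 0.45 (standard error 0.08). Tcf7l2, a partner of beta-catenin, had the largest positive value, 0.22 (standard error 0.11), and was not called.

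Linker histones compete with HMGN proteins for nucleosomes, and 2 of 7 genes passed the filter. H1f2 rose from 25.8 ± 5.55 FPKM to 42.5 ± 5.36 FPKM (mean ± SD over 6 libraries), and H1f0, the variant of resting cells, fell from 99.98 ± 3.53 FPKM to 70.5 ± 9.44 FPKM, both without overlap (adjusted p = 0.000529 and 0.000282 in limma). Of all genes tested, 32.6% were lower and 20.4% higher, and 16.1% were lower without overlap. The share that was higher without overlap was not computed. The other 5 linker histones had means under 1 FPKM in both groups.

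Of 16 genes for histone variants and their chaperones, 15 were tested, 6 were lower, 1 was higher and 8 were not called. Among all genes tested, 32.6% were lower and 20.4% higher. The median log2 difference of the list was −0.19. Npm1, nucleophosmin, was the most abundant and fell the most, from 264 ± 48.4 FPKM to 130 ± 28.1 FPKM (mean ± SD over 6 libraries). Anp32e, a chaperone that removes H2A.Z, fell from 37.1 ± 6.996 FPKM to 23.2 ± 0.297 FPKM, and H2az2, one of the H2A.Z genes, fell by 0.65 on the log2 scale (standard error 0.11). Daxx, an H3.3 chaperone, rose from 9.57 ± 0.749 FPKM to 13.3 ± 1.84 FPKM.

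The SET complex contains HMGB2 with the nuclease and chaperone partners of SET. Of its 4 tested genes, 2 were lower, against 32.6% of all genes tested, and 2 were not called. Their median log2 difference was −0.26. Set had 68.7 ± 12.03 FPKM in CTR and 46.9 ± 7.37 FPKM in dKO (SD, n = 6 each), and Apex1, the abasic-site endonuclease, had 8.24 ± 2.21 FPKM and 5.59 ± 1.01 FPKM. Nme1 had a log2 difference of 0.10 (standard error 0.16) and was not called. With median-of-ratios scaling, quantile normalization or no filter, and without CTR replicate 1, 5 or 6 or dKO replicate 4 or 6, only 1 of the 4 was lower.

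HMGB1 outside the cell acts through receptors and partners, of which 8 of 10 listed genes were tested. Of these 8, 6 were higher, against 20.4% of all genes tested, none was lower and 2 were not called, with a median log2 difference of 0.89. Havcr2, encoding TIM-3, rose from 4.97 ± 0.818 FPKM to 14.7 ± 5.06 FPKM (mean ± SD over 6 libraries), and Thbd, the endothelial thrombomodulin that binds HMGB1, rose from 18.6 ± 3.37 FPKM to 48.7 ± 9.97 FPKM. Cxcr4, the receptor of the CXCL12 and HMGB1 complex, was the most abundant called gene and rose from 30.1 ± 4.34 FPKM to 49.8 ± 8.28 FPKM. Cxcl12 itself had 43.8 ± 17.3 FPKM in CTR and 35.6 ± 13.4 FPKM in dKO and was not called. Havcr2, Tlr2 and Tlr4 are known in macrophages, whose markers were higher in dKO as given above, and their part in these rises was not tested.

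Hmga2 is a classic target of the let-7 microRNAs. Of 8 genes for Lin28, let-7 processing and Igf2bp proteins, 4 were tested. Of these, 3 were lower, against 32.6% of all genes tested, and 1 was not called. Igf2bp2, an RNA-binding protein whose gene HMGA2 is known to activate, was the most abundant and fell from 22.3 ± 1.73 FPKM to 14.3 ± 1.84 FPKM (mean ± SD over 6 libraries), while Hmga2 itself was not called. Dicer1 fell by 0.41 on the log2 scale (standard error 0.07), and Dgcr8 had −0.09 (standard error 0.09) and was not called. No Lin28 gene was tested. Igf2bp1 and Igf2bp3 did not pass the filter, and their dKO means were the higher ones, with overlapping libraries. Igf2bp1 had a mean of 0.189 FPKM in CTR and 0.427 FPKM in dKO, and Igf2bp3 had 0.275 and 0.537 FPKM.

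**Figure D4:**
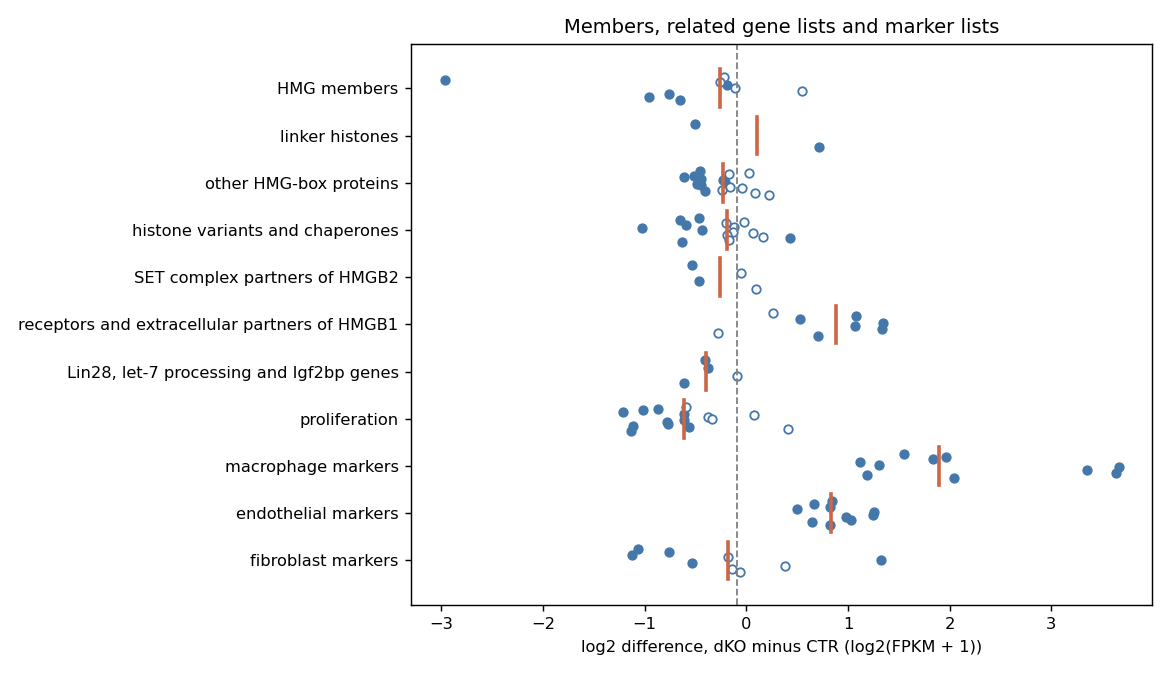
Log2 difference, dKO minus CTR (horizontal axis), of the tested genes of each list (rows); filled points were called at an adjusted p under 0.05 in limma, open points were not, the orange mark is the median of a list and the dashed line that of all genes tested. HMGB1 receptors and the macrophage and endothelial markers have positive medians, and the proliferation list has a median of −0.61.

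Position was not used to pick the members, so their neighbours were examined. Among 62 tested genes whose start lay within 500 kb of a member, 32 were called (13 higher and 19 lower), which is 51.6%, close to the 53.1% of all genes tested. Around Hmgn2, 17 genes were tested, 5 were higher, 6 were lower and 6 were not called, with a median log2 difference of −0.07. Cep85, a centrosome protein whose start lies 218.9 kb from that of Hmgn2, had the largest fall, from 14.7 ± 2.24 FPKM to 3.26 ± 0.543 FPKM (mean ± SD over 6 libraries), a log2 difference of −1.88 (standard error 0.11, adjusted p = 1.88e-07 in limma), without overlap. Between them lie Dhdds, which fell by 0.37 on the log2 scale (standard error 0.06), Cd52, a leukocyte surface protein, which rose from 1.91 ± 0.425 FPKM to 7.29 ± 2.50 FPKM, and Sh3bgrl3, which rose by 0.29 (standard error 0.10). On the other side, Rps6ka1, a kinase of the RSK family, rose from 2.37 ± 0.444 FPKM to 5.64 ± 1.04 FPKM, and Arid1a, a BAF subunit, fell by 0.26 (standard error 0.08). Genes that fell and genes that rose were thus interspersed along the region.

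**Figure D5:**
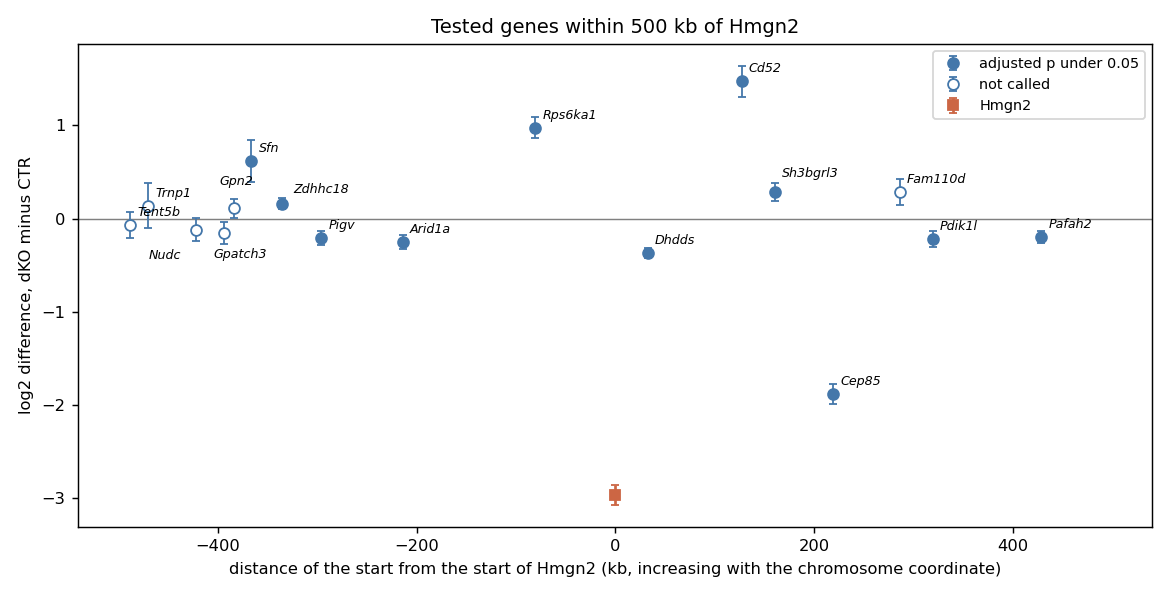
Log2 difference, dKO minus CTR (vertical axis, bars are 1 standard error), of the 17 tested genes within 500 kb of Hmgn2 against the distance of their start from its start (horizontal axis, kb); filled circles were called in limma, open circles were not, and the square is Hmgn2. Cep85 is at −1.88 and Cd52 at 1.47.

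The genes whose pattern over the 12 libraries was nearest to that of Hmgn2 were named by the mean absolute difference of log2(FPKM + 1), each gene centred on its own mean. They were Lrrc17 (0.27), Cth (0.29), P2rx3 (0.30), Slc7a5 (0.32) and Trib3 (0.41). Lrrc17 had 9.55 ± 2.06 FPKM in CTR and 0.628 ± 0.232 FPKM in dKO (SD, n = 6 each). Cth, which makes cysteine from cystathionine, had 53.0 ± 19.97 FPKM in CTR and 5.89 ± 0.908 FPKM in dKO. Slc7a5, a transporter of large neutral amino acids, had 96.3 ± 17.5 FPKM in CTR and 16.7 ± 1.37 FPKM in dKO. None of the other 8 members was among these 5, and the likeness rests on the gap between the groups that all 5 share.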

How the data were processed

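RNA of 6 CTR and 6 dKO MLEC libraries was sequenced as paired ends. The authors trimmed reads (Trimmomatic), aligned to mm39 (STAR), kept uniquely aligned reads and deposited FPKM values. The counter, annotation and strand are not given in the sources used here, and the processing notes of the submitters also name Bowtie2 2.2.3, HISAT2 2.1.0, TopHat2 and DESeq2. Unique alignment can remove reads shared by parents and copies. The label protocol names retinas and another library kit than the methods do, and retina markers were near 0.

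The members and lists were chosen with earlier results of these data known. Sample labels gave each column its group, and the dKO columns carry the prefix TAM although both groups received tamoxifen. Log2(FPKM + 1) values of 12467 genes were fitted with limma 3.58.1 (trend, group only, Benjamini-Hochberg adjustment, R 4.3.3), and the pseudocount of 1 and the filter of 1 FPKM in 6 libraries were varied. On simulated data for this comparison, 198 of 198 genes changed by 1.5 on the log2 scale were called, and 6 of 12368 unchanged genes. The simulation gave every gene the same small dispersion, no effect shared by a library, and few changed genes. It checks that the fit runs correctly and not its error rate in these libraries. Whole fragments were recovered for 100.0% of genes within 0.0001 fragments, and serve for the copies and for limma-voom. Copies were found with blastn 2.17.0 in GENCODE transcripts. Symbols were matched for 96.6% of genes. Named genes were the members, Sp1 and Sp3, copies with a mean of at least 1 FPKM in a group, 2 to 5 per list (largest and smallest difference, most abundant), tested genes within 500 kb of Hmgn2, and the 5 nearest in pattern.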

Additional observations from a re-analysis of the deposited data

Results flagged for a closer look

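In 9 of 114 groups of 6 values examined, 1 library stood far from the others of its group, its gap to the nearest, as a share of the whole range, being above the 95% critical value of Dixon. Chance would mark about 1 in 20 independent groups with a normal spread, which is 5.7 groups here. Parents, copies and shares rest on related values, so the groups are not independent and nothing is read from the number.

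Of the 9, 5 were in dKO replicate 1. Hmga1 was at 218 FPKM there, against 56.7 to 105 FPKM in the other dKO libraries, its copy Hmga1b was at 41.0 FPKM against 10.9 to 20.3, and Hmga2 was at 41.7 FPKM against 11.2 to 21.9. Hmgn1 held 85.8% of the HMGN sum in this library against 78.1% to 80.5% in the others, and Gpn2, a neighbour of Hmgn2, was at 8.69 FPKM against 7.13 to 7.68.

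In dKO replicate 3, which also had the highest summed macrophage markers (5281 FPKM), Cd52 was at 12.04 FPKM against 5.24 to 7.54 FPKM, Gm8666, a copy of Hmgn1, was at 2.34 FPKM against 0.955 to 1.37, and Gm6750, a copy of Hmgn2, was at 0.637 FPKM against 0 to 0.225. Gm6750 was at 3.21 FPKM in CTR replicate 1 against 1.10 to 1.53 FPKM in the other CTR libraries. The cause was not tested.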

How the results depend on the processing

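Over 23 alternative fits, Hmgn2, Hmgb1, Hmgb2 and Hmgb3 were called lower in every one, and of 445 values under an alternative 425 stayed within 1 SD (levels and differences) or 1.5 times (counts) of the reported value, which for Hmga1, not called, includes changes of sign. The count over all genes was 4222 with a filter of 5 FPKM in 6 libraries, where fewer genes were tested, 7550 with no filter, and 5858 to 6841 as single libraries were left out. The log2 difference of Hmgn2 was −3.28 with limma-voom, −3.27 and −3.24 with pseudocounts of 0.01 and 0.1 and −3.22 in TPM, and −3.01 to −2.89 without single libraries. That of Hmgn5 was −0.10 with median-of-ratios scaling. The number of members called was 4 to 7 over the alternatives and 5 to 6 without single libraries. SET complex genes called were 1 with median-of-ratios scaling, quantile normalization or no filter, and 1 to 2 without single libraries. Proliferation genes called were 5 with no filter and 5 to 12 without single libraries. With copies added Hmgn2 held 42.2% of the HMGN sum in CTR and 34.3% in dKO, and the shorter motif was in 7 members. The cause of these moves was not tested.

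With the replicate block, 6955 genes and 7 members were called, Hmgn1 (lower in dKO) and Hmga2 (higher in dKO) besides the 5. The labels share only numbers, and correlations of same-numbered libraries ran from −0.11 to 0.57. Of the 6 CTR libraries, 2 correlated best with their own number, replicate 1 (0.44) and replicate 4 (0.57). The pairing was therefore not used, but the labels do not tell whether same-numbered libraries shared a batch. Hmgn3 was not tested at 5 FPKM. Copies with few fragments are limited by depth.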
